A study of Mus musculus with 14 samples.

Results

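The genes described here are the 4 members of the Nkain family (Nkain1, Nkain2, Nkain3 and Nkain4) together with Atp1b1 and Atp1b3, which encode beta subunits of the sodium pump. They are 6 of the 41381 genes in the expression table, and all 6 passed the filter on low values that left 17325 genes for testing. They were picked by name, with differences between the Chd7 genotypes in this table in view. Their levels in the 3 genotypes are therefore given as a description without a test. Tests are given for the order of their levels, for the sequencing batch, for the dependence of a genotype difference on the batch, and for other genes of sodium handling. Those other genes were also listed with earlier results of these data known.

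The sodium pump, or Na+/K+-ATPase, moves sodium out of the cell and potassium into it at the cost of ATP, and so maintains the gradients that neurons use for excitability and for the uptake of transmitters. Each pump pairs a catalytic alpha subunit with a beta subunit, a glycosylated protein needed for folding and delivery to the plasma membrane, and a small FXYD protein can join them to tune the transport. Nkain proteins are small membrane proteins, mostly of the nervous system, that were named for their interaction with the pump and bind its beta subunit encoded by Atp1b1.

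The 4 Nkain genes are closely related in sequence, and their short 50-base reads had to be assigned among them. The first 90 coding bases of each gene are printed below to show how alike they are, counted from the annotated start codon on the minus strand of GRCm38 (the genome build named mm10), with capitals where all 4 genes carry the identical base.
Nkain1: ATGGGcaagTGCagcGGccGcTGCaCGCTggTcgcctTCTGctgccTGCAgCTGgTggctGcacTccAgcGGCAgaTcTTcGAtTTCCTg
Nkain2: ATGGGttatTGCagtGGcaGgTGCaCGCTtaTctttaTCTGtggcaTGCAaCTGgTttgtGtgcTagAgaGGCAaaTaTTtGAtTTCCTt
Nkain3: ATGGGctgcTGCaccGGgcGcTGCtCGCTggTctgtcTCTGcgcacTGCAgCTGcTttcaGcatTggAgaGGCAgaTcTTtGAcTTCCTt
Nkain4: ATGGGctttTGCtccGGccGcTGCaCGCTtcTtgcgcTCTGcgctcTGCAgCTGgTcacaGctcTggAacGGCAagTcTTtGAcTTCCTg
The same base stood in all 4 genes at 48 of these 90 positions. Over the aligned coding sequences, identity was highest between Nkain1 and Nkain2 (72.3%) and lowest between Nkain2 and Nkain4 (65.4%), whereas the coding sequences of Atp1b1 and Atp1b3 shared 59.1% of their aligned bases. No run of 50 bases was common to 2 annotated Nkain genes, so the family members do not share reads of that length without mismatches.

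All 6 genes are protein coding and lie on the minus strand. Nkain1 is on chr4:130531602-130574173, Nkain4 on chr2:180934772-180954699, Atp1b1 on chr1:164437109-164458355 and Atp1b3 on chr9:96332655-96364442. Nkain2 and Nkain3 are much longer genes. Nkain2 spans 1201.15 kb on chr10:31689310-32890462 and Nkain3 spans 659.99 kb on chr4:20118874-20778866. Of 17072 tested genes with an annotated span, whose median was 18.8 kb, only 23 were longer than Nkain2 and only 108 were longer than Nkain3. Both beta subunit genes share transcript sequence with a neighbour or a copy. Of the 50-base runs in Atp1b1 transcripts, 15.8% also occur in Nme7, which overlaps it on the opposite strand, and 9.71% of those in Atp1b3 occur in the gene Gm1848. Nme7 was itself expressed, at 18.13 to 28.62 TPM, so part of the value of Atp1b1 could not be assigned to one strand, whereas Gm1848 did not exceed 0.18 TPM in any library. The values of Atp1b1 are therefore uncertain to that extent.

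The expression values come from granule neuron progenitors (GNPs), which divide in the outer cerebellar cortex after birth and give rise to granule neurons. The cells were isolated on a Percoll gradient at postnatal day 7 (P7) from mouse cerebella. The labels give the strain as C56Bl6/J for WT 1 to 3, Het 1 and 2 and Hom 1 and 2 and as C57BL/6 for the others, the study's methods name C57BL/6N, and sex was not distinguished. WT libraries (n = 5) came from Chd7 f/f mice without Cre, Het libraries (n = 5) from Atoh1-Cre::Chd7 f/+ mice and Hom libraries (n = 4) from Atoh1-Cre::Chd7 f/f mice. Chd7 encodes an ATP-dependent chromatin remodeller. Atoh1-Cre acts in the granule cell lineage. The study saw Chd7 left in the posterior lobe and took it as probably due to weaker recombination there, so Hom preparations may hold cells that keep Chd7. WT mice differ from the others in lacking Cre altogether. How many animals went into a library was not stated in the sources used here. If libraries of a group were not separate animals, p-values measure only the spread between libraries.

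Expression was given as TPM, a unit for transcript abundance that scales each gene by its length and each library to the same total and keeps no read depth. The libraries were sequenced in 2 batches: WT 1 to 3, Het 1 to 3 and Hom 1 and 2 in batch 1, and the others in batch 2. The level of Chd7 itself ran from 120.81 to 272.06 TPM in WT, 136.77 to 181.3 TPM in Het and 125.63 to 185.39 TPM in Hom, with a Hom change of -0.11 (standard error, SE, 0.20) on the log2 scale and an adjusted p of 0.862 in limma. Within batches the change was 0.41 (SE 0.11) in batch 1 and -0.77 (SE 0.16) in batch 2 for Hom, and 0.30 (SE 0.10) and -0.71 (SE 0.16) for Het. In batch 1 both Hom libraries, at 172.49 and 185.39 TPM, lay above all 3 WT libraries, the opposite of the direction in batch 2. The interaction estimate was -1.18 (SE 0.20, adjusted p = 0.127 in limma). The sources used here do not say which part of Chd7 is deleted, so a level over the whole gene cannot serve as a check. The study's qRT-PCR found less Chd7 transcript in Het and Hom GNPs than in WT. Its staining for Chd7 showed loss of the protein in granule cells of Hom mice. Genotypes are given as labelled. The 8 markers of the granule cell lineage, among them Atoh1, summed to between 2749.7 and 4236.61 TPM. Other cells were present too: the 9 markers of astroglia and Bergmann glia summed to 341.53 to 1782.28 TPM with none at 0, and the 6 Purkinje cell markers summed to 68.57 to 93.45 TPM in WT 1 to 3 and to 18.78 to 50.55 TPM in the other libraries. The 6 endothelial markers summed to 23.62 to 32.73 TPM in WT 1 to 3, and 199.32 and 109.3 TPM in WT 4 and 5. They summed to 19.48 to 431 TPM in Het and to 105.99 to 324.33 TPM in Hom, so the ranges of the genotypes overlapped. Their median Hom change was 1.56, with 5 of 6 higher at an unadjusted p under 0.05 in limma, against 8.51% of all tested genes. The 5 red blood cell markers summed to 141.04 to 714.63 TPM, with a median Hom change of -0.80. Of these, 4 of 5 were lower at that p, against 6.42% of all tested genes. The 6 oligodendroglial markers summed to 508.9 to 1364.18 TPM. None of these 17 markers was called by limma. The 6 choroid plexus markers summed to 584.75 TPM in WT 1 and to 69.21 to 242.86 TPM in the other libraries. Of the 5 tested, 4 had a Hom change below 0 and Otx2 was called higher. The part of any of these cells in the changes of the 6 genes was not tested. In such bulk RNA, fewer cells of a type and less RNA per cell cannot be told apart.

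The 6 genes covered a wide range of expression in WT GNPs. Atp1b3 was the most abundant, followed by Nkain1, Nkain4, Atp1b1, Nkain3 and Nkain2. The mean WT level of Atp1b3 was 259 ± 17.4 TPM (SD, n = 5), above that of 96.8% of tested genes, and Nkain1 followed with 214 ± 34.3 TPM (SD, n = 5). Nkain4 averaged 45.4 ± 11.7 TPM and Atp1b1 40.6 ± 15.4 TPM (SD, n = 5). Nkain3 averaged 9.46 ± 1.08 TPM and Nkain2 1.68 ± 0.400 TPM (SD, n = 5), so the Nkain family spanned expression from among the most abundant genes of these cells to near the lower limit of the filter.

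Each neighbour in this order was compared within WT libraries on the log2(TPM + 1) scale by an exact two-sided sign permutation test, which with 5 libraries cannot go below a p of 0.0625. Nkain4 exceeded Atp1b1 by 0.20 in the mean and in 3 of 5 WT libraries (exact p = 0.375), so these 2 levels did not differ beyond their spread. The other 4 steps reached the smallest possible p, with the higher gene above the lower one in 5 of 5 WT libraries. The step from Atp1b3 to Nkain1 was small, at 0.28, and their ranges over WT libraries overlapped, although Atp1b3 was the higher of the pair in 14 of 14 libraries. The remaining steps were 2.24 from Nkain1 to Nkain4, 1.92 from Atp1b1 to Nkain3 and 1.97 from Nkain3 to Nkain2, with no overlap of ranges.

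Nkain3 differed most between the genotypes. Its level was 7.95, 8.66, 10.21, 10.31 and 10.15 TPM in the WT libraries. In Het libraries it was 5.88, 7.43, 6.83, 5.59 and 7.77 TPM. In Hom libraries it was 4.49, 4.34, 3.95 and 4.76 TPM. Every Het library thus lay below every WT library, and every Hom library below every Het library. The Het mean of 6.70 ± 0.949 TPM (SD, n = 5) was 70.9% of the WT mean, and the Hom mean of 4.39 ± 0.338 TPM (SD, n = 4) was 46.4% of it. On the log2 scale the change against WT was -0.44 (SE 0.11) in Het and -0.96 (SE 0.12) in Hom. These contrasts share their WT libraries. Of all tested genes, 0.0693% had this complete ordering of WT above Het above Hom. Since Nkain3 was chosen on its genotype pattern, nothing is read from that share. The study itself names Nkain3 among the genes that Chd7 activates, with less open chromatin at it in GNPs after Chd7 loss. The direction seen here is thus neither new nor independent evidence.

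The difference in Nkain3 was of similar size in both sequencing batches. In batch 1 the Hom change was -0.87 (SE 0.16) and in batch 2 it was -1.07 (SE 0.22), and the Het changes were -0.36 and -0.56. The difference between the batches in the Hom change was -0.20 (SE 0.25), with an adjusted p of 0.713 in limma's interaction test over all 17325 genes. The batch itself moved Nkain3 by 0.053 (SE 0.098, adjusted p = 0.761).

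**Figure D1:**
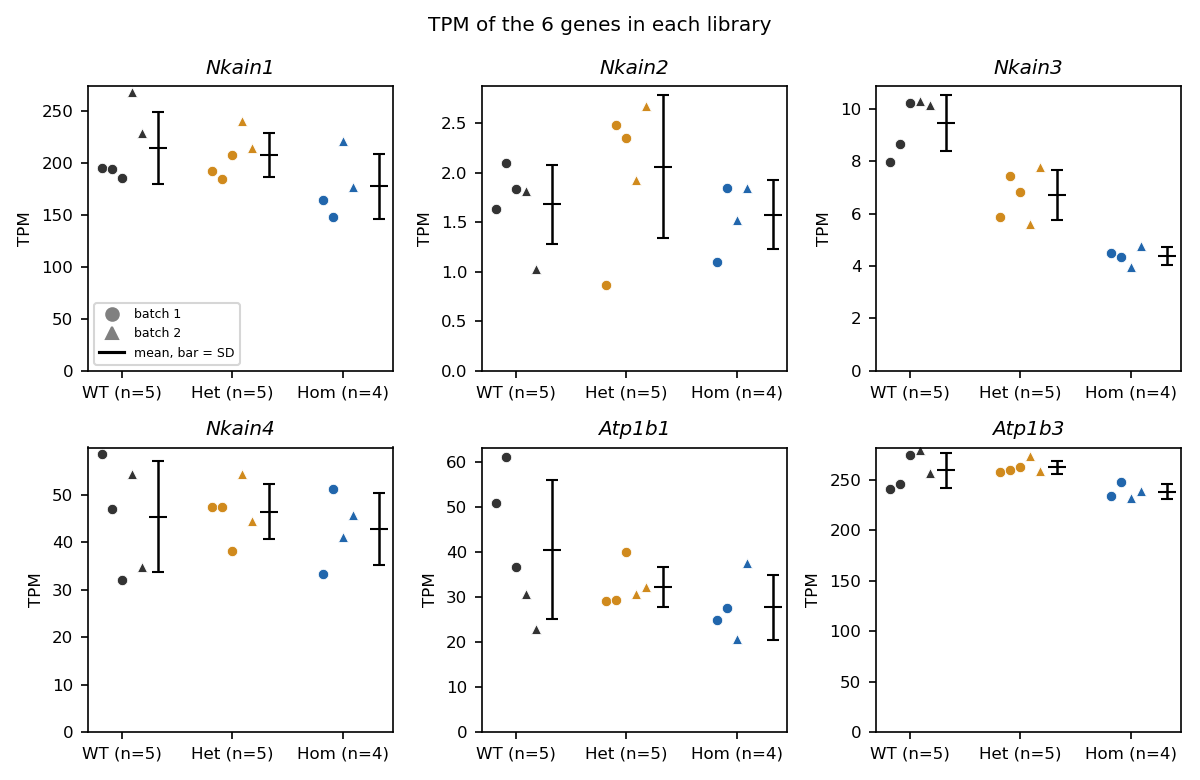
TPM of each of the 6 genes (y axis, from 0) in the WT, Het and Hom libraries (x axis), with circles for batch 1, triangles for batch 2 and a bar for the mean ± SD of each group. Nkain3 forms 3 separate bands, from 7.95 to 10.31 TPM in WT, 5.59 to 7.77 TPM in Het and 3.95 to 4.76 TPM in Hom, while the groups of Nkain2 and Nkain4 overlap.

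Nkain1, the most abundant member of its family in GNPs, was lower in Hom by a smaller amount. WT libraries held 195.11, 193.86, 185.69, 267.94 and 228.89 TPM. Het libraries held 192.62, 184.3, 207.31, 240.06 and 214.13 TPM, within a range much like that of WT. Hom libraries held 164.78, 147.98, 221.09 and 176.42 TPM. Hom 1, 2 and 4 lay under the lowest WT library and Hom 3 lay within the WT range, but each Hom library lay below every WT library of its own batch. The Hom mean was 178 ± 31.3 TPM (SD, n = 4), or 82.9% of the WT mean, and the Het mean was 208 ± 21.6 TPM (SD, n = 5). The log2 change was -0.30 (SE 0.076) in Hom and -0.037 (SE 0.072) in Het, and the Hom change was -0.29 in batch 1 and -0.32 in batch 2.

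Nkain1 was also the one gene of the set called in the batch contrast. It was higher in batch 2 in each genotype, with WT means of 191.6 TPM in batch 1 and 248.4 TPM in batch 2, and Hom means of 156 and 199 TPM. The batch change was 0.31 (SE 0.062, adjusted p = 0.00740 in limma). In this contrast 7.88% of all tested genes were called higher and 5.61% lower in batch 2, against 1 and 0 of the 6 genes here. The interaction test found a difference in the Hom change between batches of -0.032 for Nkain1 (adjusted p = 0.937).

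Markers of postmitotic granule neurons varied along with Nkain1 in some of the libraries. Their summed level was 1717.13 to 1830.71 TPM in the batch 1 WT libraries and 2095.23 and 2173.75 TPM in those of batch 2. In Hom it was 1563.35, 1467.23, 1939.48 and 1467.77 TPM, with Hom 3 again the highest of its group. Hom 4, however, had more Nkain1 than Hom 1 (176.42 against 164.78 TPM) but a lower marker sum. Of the 8 markers tested, 7 had a Hom change below 0. Tubb3, a neuronal tubulin, and Slc17a7, a vesicular glutamate transporter, were called lower, while Grin2c, a glutamate receptor subunit of mature granule cells, was called higher. The median change of the list was -0.42, against 0.024 over all tested genes, and no marker was at 0 in all libraries. The part of these cells in the level of Nkain1 was not tested.

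Nkain4, the second most abundant family member, did not separate the genotypes. Its WT libraries held 58.64, 47.1, 32.07, 54.32 and 34.77 TPM. Het libraries held 47.37, 47.54, 38.26, 54.36 and 44.59 TPM, and Hom libraries held 33.4, 51.27, 41.14 and 45.7 TPM. All Het and Hom values lay within the WT range. The log2 change was -0.064 (SE 0.18) in Hom and 0.062 (SE 0.17) in Het, and the batch change was 0.061 (adjusted p = 0.821).

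Nkain2, with the longest gene of the family, was near the limit of the filter in every group. It reached 1.63, 2.1, 1.83, 1.81 and 1.03 TPM in WT and 0.87, 2.48, 2.35, 1.92 and 2.67 TPM in Het. In Hom it reached 1.1, 1.84, 1.52 and 1.84 TPM. The ranges overlapped throughout, and the lowest value of each group was well below its other values. The log2 change was -0.057 (SE 0.21) in Hom and 0.17 (SE 0.20) in Het. An SE of this size would leave a change like that of Nkain1 within the error, and the sign of the Hom change was negative in batch 1 (-0.22) and positive in batch 2 (0.16).

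The beta subunits showed a different kind of spread. Atp1b3, the predominant beta subunit transcript of these cells, varied little, with a coefficient of variation of 6.69% over the WT libraries. It was present at 240.44, 245.41, 274.73, 279.54 and 256.31 TPM in WT and at 257.37, 260.0, 262.42, 273.68 and 258.99 TPM in Het. In Hom it was present at 233.86, 248.09, 232.41 and 239.06 TPM. Each Hom library thus lay below every Het library, and 3 of 4 lay under the lowest WT library. The Hom mean of 238 ± 7.09 TPM (SD, n = 4) was 91.9% of the WT mean and the Het mean was 262 ± 6.52 TPM (SD, n = 5). The log2 change was -0.12 (SE 0.051) in Hom and 0.020 (SE 0.048) in Het. The Hom change was -0.071 in batch 1 and -0.18 in batch 2, and the difference between them was -0.11 (adjusted p = 0.609).

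Atp1b1, which encodes the beta subunit that binds Nkain proteins, varied more than any other gene of the set among WT libraries, with a coefficient of variation of 38.0%. It stood at 50.93, 61.29 and 36.81 TPM in the WT libraries of batch 1 and at 30.83 and 23.04 TPM in those of batch 2. Het libraries held 29.29, 29.38, 40.02, 30.77 and 32.22 TPM. Hom libraries held 24.98, 27.69, 20.83 and 37.69 TPM. The 3 highest WT values all came from batch 1, and the values of batch 2 lay within the range of the mutants. Pooled over batches the log2 change was -0.45 (SE 0.23) in Hom and -0.25 (SE 0.21) in Het.

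These pooled changes did not hold within both batches. In batch 1 the Hom change of Atp1b1 was -0.86 (SE 0.22), and in batch 2 it was 0.071 (SE 0.28). The Het changes were -0.57 and 0.23. The difference in the Hom change between the batches was 0.93 (SE 0.38), with an unadjusted p of 0.0324 and an adjusted p of 0.247 in limma's interaction test, so it did not pass the threshold over all genes. In that test 0.0115% of all tested genes were called with a lower value, and none of the 6 described here was called. The batch change of Atp1b1 was -0.29 (SE 0.18, adjusted p = 0.321).

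**Figure D2:**
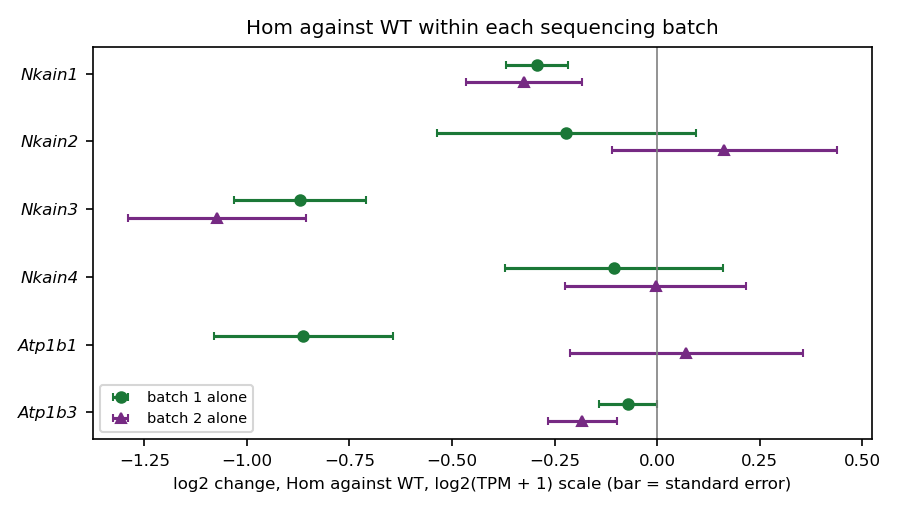
Log2 change of Hom against WT (x axis, on the log2(TPM + 1) scale, with SE as bars) for the 6 genes, fitted in batch 1 alone (green circles) and in batch 2 alone (purple triangles). Nkain1 and Nkain3 sit left of 0 in both batches, at -0.29 and -0.32 and at -0.87 and -1.07. Nkain4 (-0.11 and -0.0040) and Atp1b3 (-0.071 and -0.18) also sit left of 0 in both. Atp1b1 sits at -0.86 in batch 1 and 0.071 in batch 2, and Nkain2 at -0.22 and 0.16.

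Astroglial transcripts varied along with Atp1b1 from library to library. The summed level of the 9 astroglial markers was 1643.77, 1782.28 and 1158.53 TPM in WT 1 to 3, and 829.77 and 432.84 TPM in WT 4 and 5. Among the Het libraries it was highest in Het 3, at 1125.8 TPM, which also had the highest Atp1b1, and the other 4 held 573.63 to 699.64 TPM. In Hom it was 540.7, 548.89, 341.53 and 665.09 TPM, so that the lowest and the highest Hom library for these markers were again the lowest and the highest for Atp1b1. None of the 9 markers was called in Hom, 7 of 9 had a change below 0, and their median was -0.81. Of the 9, 5 were lower at an unadjusted p under 0.05 in limma, against 6.42% of all tested genes. Purkinje cell markers were likewise highest in WT 1 to 3. How far these cells account for the level of Atp1b1 was not tested.

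**Figure D3:**
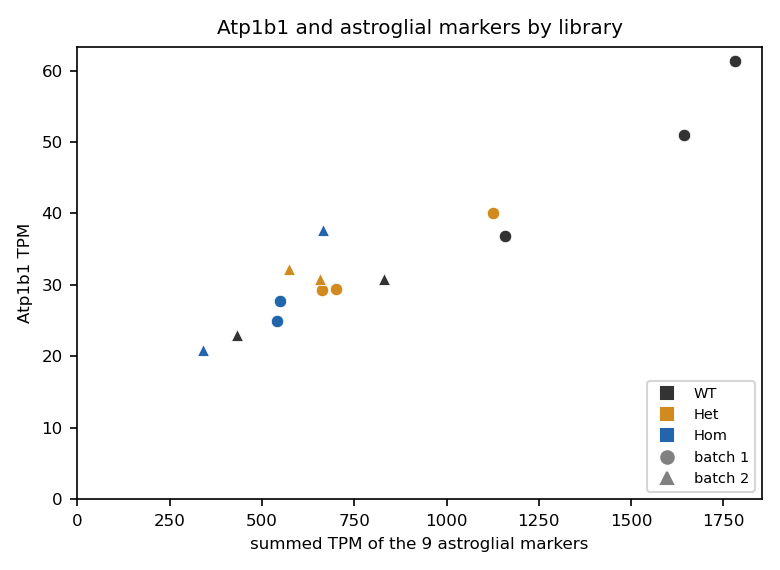
Atp1b1 TPM (y axis) against the summed TPM of 9 markers of astroglia and Bergmann glia (x axis) in each of the 14 libraries, coloured by genotype and shaped by batch, with both axes from 0. The 3 WT libraries of batch 1 and Het 3 have the 4 highest marker sums (1125.8 to 1782.28 TPM), and WT 1 and 2 have the highest Atp1b1, at 50.93 and 61.29 TPM.

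Over the set as a whole, all 6 log2 changes in Hom were below 0, with a median of -0.21, against 0.024 over all tested genes. Nkain3 was the only one in which each Hom library lay below every WT library, as in 1.96% of all tested genes. In Nkain1 and Nkain3 each Hom library lay below every WT library of its batch, as in 3.56% of all tested genes. In Het, 3 of 6 changes were below 0. Every Het library lay below every WT library for Nkain3 alone, as in 0.583% of all tested genes, and each Hom library lay below every Het library for Nkain3 and Atp1b3, as in 1.06% of them. Because the 6 genes were picked with the genotype differences known, nothing follows from these counts about the set.

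Nkain1 led the summed TPM of the Nkain family. It made up 79.1% in WT, 78.9% in Het and 78.2% in Hom on average, and 72.0% to 83.3% over single libraries. Nkain4 made up 16.8%, 17.7% and 19.2%, with a range of 12.7% to 25.0%. The share of Nkain3 was 3.54% in WT, 2.58% in Het and 1.97% in Hom, and its ranges in WT (3.02% to 4.44%) and Hom (1.48% to 2.20%) did not overlap. That of Nkain2 was under 1.03% in every library. The summed level of the family was 271 ± 39.2 TPM in WT (SD, n = 5), 263 ± 24.2 TPM in Het (SD, n = 5) and 226 ± 29.8 TPM in Hom (SD, n = 4). These ranges, pooled over batches, overlapped. As for Nkain1, each Hom library lay below every WT library of its batch. In batch 1 the Hom sums were 203.77 and 205.43 TPM, against 229.8 to 263.33 TPM in WT. In batch 2 they were 267.7 and 228.72 TPM, against 334.38 and 274.84 TPM in WT. The lower level of Nkain3 in Hom was thus a small part of the family's RNA.

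The beta subunit pool was likewise led by 1 gene. Atp1b3 made up 73.0% of the summed beta subunit TPM in WT, 75.4% in Het and 74.8% in Hom. Atp1b2, a beta subunit gene that is not part of the set, made up 15.8%, 15.4% and 16.6%, and Atp1b1 made up 11.3%, 9.27% and 8.61%. The summed level was 357 ± 27.9 TPM in WT (SD, n = 5), 349 ± 15.7 TPM in Het (SD, n = 5) and 320 ± 25.3 TPM in Hom (SD, n = 4). The ranges of the genotypes overlapped.

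**Figure D4:**
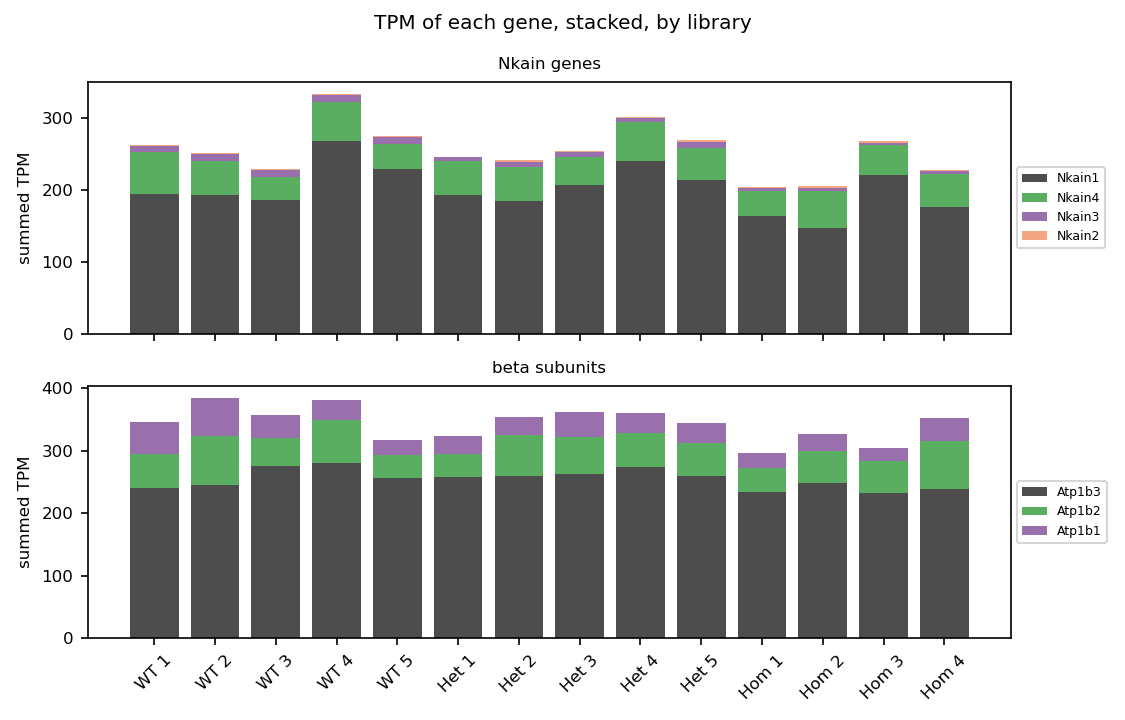
TPM of each gene stacked by library (x axis), for the 4 Nkain genes (top) and the beta subunits of the sodium pump (bottom), each on a y axis of summed TPM from 0. Nkain1 and Atp1b3 form the largest part of their pool in every library, and the sum of the beta subunits runs from 296 to 385 TPM.

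Among the FXYD regulators, Fxyd6 was by far the most abundant, with a mean of 584 ± 100 TPM in WT (SD, n = 5) and 539 ± 58.6 TPM in Hom (SD, n = 4), and its change of -0.13 (SE 0.11) did not pass the test (adjusted p = 0.640). None of the 5 FXYD genes tested was called by limma in either genotype, and 0 had an unadjusted p under 0.05. Of all tested genes, 6.42% were lower and 8.51% higher at that p in Hom, and 2.88% and 3.2% in Het. Atp1b2 had a Hom change of -0.086 (SE 0.24, adjusted p = 0.919), and Atp1b4 was at or near 0 TPM and was not tested.

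**Figure D5:**
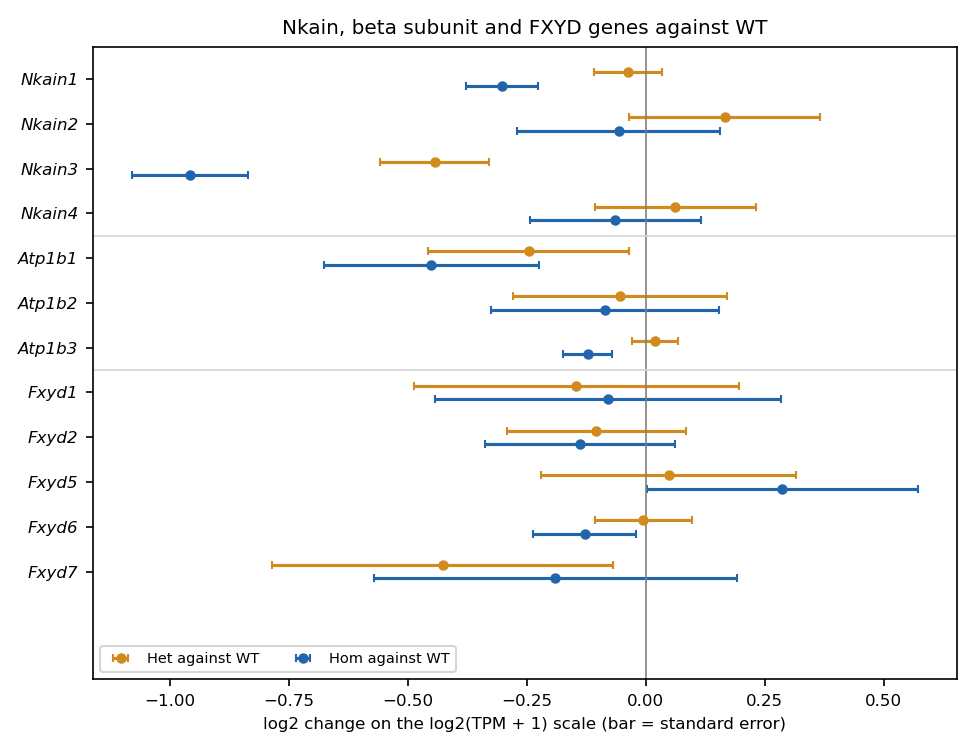
Log2 change against WT (x axis, on the log2(TPM + 1) scale, with SE as bars) of the Nkain genes, beta subunits and FXYD genes that were tested, for Het (orange) and Hom (blue). Nkain3 lies farthest to the left in Hom at -0.96 with Het at -0.44, followed by Atp1b1 at -0.45 in Hom.

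Genes that use the sodium gradient or move other ions by related pumps were examined as the wider pathway. Of 41 such genes, 35 were tested, and in Hom 4 were called lower and 1 higher by limma, with a median change of 0.093. Over all tested genes 1.41% were called lower and 1.27% higher in this contrast. In Het none of the 35 was called, where 0% of all tested genes were called lower and 0.00577% higher. Unadjusted p-values under 0.05 were found in Het for 5 of the 35 with lower and 2 with higher levels, against 499 (2.88%) and 555 (3.2%) of all 17325 genes. Since these pathway genes were chosen with earlier results of these data known, nothing follows from these counts about them as a set. The 5 genes called in Hom were all carriers. Slc8a1, which encodes a sodium-calcium exchanger, fell from 17.0 ± 0.884 TPM in WT (SD, n = 5) to 12.6 ± 0.803 TPM in Hom (SD, n = 4), a change of -0.41 (SE 0.085, adjusted p = 0.0198). Another exchanger gene of the same family rose. Slc8a2 increased from 18.9 ± 3.12 TPM in WT (SD, n = 5) to 26.5 ± 4.34 TPM in Hom (SD, n = 4), by 0.43 (SE 0.076, adjusted p = 0.00711), and stayed called with any 1 of the 14 libraries left out, but not without a batch term. None of the 5 calls was kept in either batch alone, and fitting only WT and Hom ended those of Slc8a1, Slc24a2, Slc24a3 and Slc6a15.

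The potassium-dependent sodium-calcium exchangers also included genes with lower levels. Slc24a2 fell from 8.56 ± 1.01 to 5.49 ± 0.536 TPM, a log2 change of -0.53 (SE 0.12, adjusted p = 0.0340), and Slc24a3 fell from 22.7 ± 2.65 to 16.9 ± 2.67 TPM, or by a log2 difference of -0.43 (SE 0.10, adjusted p = 0.0461; SD, n = 5 WT and n = 4 Hom). Both calls depended on single libraries, since that of Slc24a2 was lost in 8 and that of Slc24a3 in 10 of the 14 fits without 1 library. Slc6a15, a carrier of neutral amino acids in neurons, fell from 45.4 ± 3.68 to 35.5 ± 6.78 TPM, or by a log2 difference of -0.33 (SE 0.073, adjusted p = 0.0268; SD, n = 5 WT and n = 4 Hom). Its call was lost in 6 of 14 such fits and that of Slc8a1 in 4 of 14. Slc8a1 and Slc6a15 belong to the genes that the study listed as lower in these samples, so their direction here is no independent evidence.

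Of 7 calcium pump genes tested none was called in Hom, and 3 had higher levels with an unadjusted p under 0.05, as had 8.51% of all tested genes. Atp2a2, the calcium pump of the endoplasmic reticulum, had the smallest adjusted p among them, with a change of 0.21 (SE 0.059, adjusted p = 0.0779). Of 16 ion carriers 3 were called lower and 1 higher, and of 11 carriers of transmitters and amino acids 1 was called lower. The glial glutamate carrier Slc1a3 had a Hom change of -0.86 (SE 0.29), which did not pass the test (adjusted p = 0.161), and the sum of astroglial markers that includes it varied between libraries as described for Atp1b1. In the batch contrast Slc6a15 was called lower in batch 2, and Slc8a2 was called higher. No pathway gene was called in the interaction test, where an unadjusted p under 0.05 was reached by 1 gene in each direction. Of all tested genes, 8.85% reached it in the lower direction, so nothing is read from these counts.

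The genes whose level followed each of the 6 most closely were found from Pearson's r of log2(TPM + 1) over the 14 libraries. The batch effect, fitted together with genotype, was removed first. These libraries share their genotypes, cell mixtures and total, and the values are a description. For Nkain3 the closest were Grik2, a kainate receptor subunit gene (r = 0.975), the growth factor gene Pdgfc (r = 0.962) and Hs3st5, a heparan sulfate sulfotransferase gene (r = 0.957). All 3 had lower means in Hom than in WT, for example 90.9 TPM in WT and 42.4 TPM in Hom for Grik2. The study had already reported Grik2 as lower by qRT-PCR in cultured granule neurons of Chd7 mutants. For Nkain1 they were Basp1, a growth cone protein gene (r = 0.968), Cplx1, which encodes a regulator of vesicle release (r = 0.956), and the creatine kinase gene Ckb (r = 0.945).

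Atp1b1 was followed by Mmd2 (r = 0.951), by Rlbp1, a retinoid-binding protein gene of glia (r = 0.949), and by the matrix protein gene Tnc (r = 0.943). Atp1b3 was followed by Vopp1 (r = 0.886), Hcfc2 (r = 0.883) and the potassium channel subunit gene Kcns2 (r = 0.875). For Nkain2 the closest were Ndfip1 (r = 0.896), Nptn (r = 0.891) and Tmem147 (r = 0.881), and for Nkain4 Gm12411 (r = 0.910), Gm22314 (r = 0.903) and Rerg (r = 0.854). The likeness was lower for these 3 genes than for Nkain1, Nkain3 and Atp1b1. Among the 6 genes, the r was highest between Nkain3 and Atp1b3 (0.627) and between Nkain1 and Nkain3 (0.623), whereas Atp1b1 and Atp1b3 had an r of only 0.0995 over the 14 libraries.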

How the data were processed

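Total RNA of 14 GNP libraries was sequenced as single-end 50-base reads. The authors mapped them to the mouse transcriptome with Bowtie 1.0.0 and estimated expression with RSEM 1.2.15 (mm10, versions from the submitters' processing notes), and deposited TPM values, which keep no read depth, so no counting error or detection limit could be given. At default settings RSEM does not use strand. Columns headed as controls were matched to WT libraries by their number, and batches follow the study's methods. Het 3 is in batch 1 there, although its label has the form of the batch 2 labels, so an alternative placed it in batch 2. The column sums are equal within rounding, so the values were taken as not corrected for batch. A large change in abundant genes shifts all others.

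Values were analysed as log2(TPM + 1) for genes that reached a TPM of 1 in at least 4 libraries. Changes are given on that scale and are understated for genes at low TPM. Linear models with genotype and batch (limma 3.58.1, R 4.3.3, eBayes with trend) used all 14 libraries, with two-sided p-values adjusted by Benjamini-Hochberg over 17325 genes, and a gene was called at an adjusted p under 0.05. The batch dependence of the Hom change was an interaction term. Linear models replaced the study's ComBat correction and rank test. An exact Kruskal-Wallis test over all genotypes together, at an unadjusted threshold of 0.01, was an alternative. The models were tested on simulated data.

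The members, the pathway and the marker lists were chosen with earlier results of these data known. Genes named in the text are the members, Chd7, genes of the pathway lists including all that were called, defining markers, and the 3 genes most alike to each member. Nme7 and Gm1848 were named after their overlap was seen. Positions (1-based), spans and sequences come from GENCODE annotation and transcripts of GRCm38, with symbols for 40340 of 41381 genes. Alternatives changed the pseudocount, the filter, the scaling, the batch term, the libraries fitted, the batch of Het 3, a replicate block and each library in turn. Some genes of the pathway are not reported here and were left out of the pathway counts.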

Additional observations from a re-analysis of the deposited data

Results flagged for a closer look

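Atp1b1 in Het 3 was flagged because its level of 40.02 TPM stood apart from the other 4 Het libraries, with a gap to the next of 0.727 of the group's range by Dixon's criterion. The summed astroglial markers of that library, 1125.8 TPM, were also the highest of the Het group. The relation of these values was not tested. Of 21 groups of libraries examined in this way 1 was flagged, and chance would flag 1.05.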

How the results depend on the processing

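For Hom against WT, 245 lower and 220 higher calls became 79 and 83 in batch 1 alone, 4 and 0 in batch 2 alone, 123 and 136 with only WT and Hom fitted, and 385 and 420 by the exact Kruskal-Wallis test. Without a batch term 163 were lower. Leaving out each library in turn gave 147 to 248 lower and 137 to 241 higher calls, fewest lower without Hom 1 and fewest higher without Hom 4. Fewer libraries enter the fits of single batches. The exact Kruskal-Wallis test, at an unadjusted p under 0.01, counted 385 genes as lower and 420 as higher. It compares all genotypes at once and has no contrast of Hom with WT alone. Its counts are therefore not Hom calls and cannot be set against those of limma. The log2 change of Nkain3 lay between -1.09 and -0.84 in 26 alternatives. The direction of Nkain1, Nkain3 and Atp1b3 in Hom was kept in 26 of 26 alternatives and that of Atp1b1 in 25. For Nkain2 the sign was kept in 22 of 25 and for Nkain4 in 23 of 26.

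For Het against WT, 0 lower calls became 1 in either batch alone and 0 to 6 without single libraries (6 without Het 2). The single higher call became 3 with a pseudocount of 0.1 or 0.5, 2 in batch 1 alone or without a batch term, 0 with TPM above 0 in at least 4 libraries, a mean TPM of at least 5, quantile normalization or only WT and Het fitted, and 0 to 7 without single libraries. The Kruskal-Wallis test has no Het contrast either and gave no value there. With Het 3 placed in batch 2, batch calls fell from 972 to 220 lower and from 1366 to 495 higher. Without single libraries they ranged from 565 to 1052 and from 823 to 1565, lowest without WT 4. The 2 interaction calls became 0 with a pseudocount of 0.1 or 0.5, with Het 3 in batch 2 or with only WT and Hom fitted, 5 with TPM above 0 in at least 4 libraries, 1 with median-ratio scaling, and 0 to 25 without single libraries, with 0 to 10 higher calls in place of 0. The causes were not tested.

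Replicate numbers did not pair the libraries: 3 of 13 same-numbered pairs had correlated deviations over 0.1 (range -0.235 to 0.264), and 3 of 14 libraries correlated best with their own number. With the replicate number as a block, Hom calls were 144 lower and 115 higher, the Het higher call was 0, batch calls were 3 lower and 1 higher with 0 members, and 1 interaction call was left. The block ended the Hom calls of Slc8a1, Slc8a2, Slc24a2 and Slc6a15, not that of Slc24a3, and the batch calls of Nkain1, Slc8a2 and Slc6a15. Replicate number is partly confounded with batch. The order of member levels was kept in every alternative run, with the step from Nkain4 to Atp1b1 between 0.052 and 0.34 without single libraries. TPM keeps no depth, so for low genes such as Nkain2 the precision rests on the spread between libraries alone.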
